A study of Homo sapiens with 12 samples.

Results

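Single-block genes are protein-coding genes whose listed exons join into 1 uninterrupted stretch of the genome, so that their exon counts need no splice junction to be defined. The rule that selects them uses coordinates alone. Of 58051 genes in the deposited exon count table, 19737 were protein-coding and 1254 of those had exactly 1 merged exon block. From these, 15 genes on chromosomes MT or Y, 433 genes that overlap another listed gene on either strand and 57 histone genes were set aside, which left 749 genes. The name single-exon held for 549 of them, which have no intron in any transcript annotated in the count table or in GENCODE 29, and these are called intronless here. The other 200 have an intron in at least 1 annotated transcript that an exon of another transcript spans. In 52 of the 200 the authors' own exon list shows that intron, and the other 148 have it in GENCODE 29 only. Olfactory, taste and trace amine receptors make up 138 of the 200. For these 200 genes, which include RPS15, ID1, MT2A, GADD45B and JUND, an exon count can include reads from a retained intron, so results are given for the intronless genes separately.

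Most protein-coding genes of mammals are transcribed with introns that the spliceosome removes while RNA polymerase II is still on the gene. Intronless genes skip that step, and many are short genes for signalling proteins, transcription factors, receptors or copies of spliced genes that were reverse-transcribed back into the genome. Several of the fastest genes to respond to growth factors, such as JUN and RHOB, have no intron, while others of that immediate-early class, such as FOS and EGR1, have a few. Prefoldin is a chaperone complex that hands unfolded actin and tubulin to the cytosolic chaperonin, and PFDN2 and PFDN5 are 2 of its subunits.

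The cells were HCT116, an established human colon carcinoma line with an epithelial character, and each target was lowered with a single siRNA. All 12 libraries come from cells that were starved of serum for 48 h from 24 h after the siRNA was added, the controls included. The 6 groups of 2 libraries are siControl, siPFDN2 and siPFDN5 cells taken at the end of starvation, called before serum, and the same 3 siRNAs with cells taken 90 min after serum was added back, called after serum. Total RNA was depleted of 18S rRNA, so nascent and mature RNA were sequenced together and cannot be told apart over an intronless gene. The labels do not say whether the 2 libraries of a group came from separate cultures, and the p-values below measure only the spread between these libraries, which may be technical.

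Exon counts summed to between 46158398 and 114454288 per library, and the 749 genes held 0.239% to 0.333% of them. Levels are given below as CPM, the counts of a gene per 1000000 counts of a library, after scaling each library by the trimmed mean of M values (TMM), the usual correction for library composition. PFDN2 lay at 59.5% of its siControl level in siPFDN2 cells before serum and 46.7% after serum, and PFDN5 at 60.4% in siPFDN5 cells before serum. After serum PFDN5 read 78.0 and 79.6 CPM under the siPFDN5 label against 87.3 and 90.1 CPM in siControl, a level of 88.8%, so the knockdown is small there and these libraries are named by their label. PFDN2 lay at 212% of its siControl level in siPFDN5 cells before serum. None of these differences reached an adjusted p of 0.05 in the edgeR fit across all genes. The epithelial markers EPCAM (182 to 289 CPM) and KRT8 (839 to 1370 CPM) were abundant in all libraries, and the fibroblast gene DCN and the blood cell genes PTPRC, CD3E and HBB lay between 0 and 0.0575 CPM, while the fibroblast gene COL1A1 read 4.70 to 19.4 CPM and the macrophage gene CD68 3.22 to 5.41 CPM.

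Replicate 2 of siPFDN2 before serum stood apart. Among genes with a mean log2 CPM of 3 or more its group had a standard deviation of the log2 difference between replicates of 0.716 over all genes and 0.584 over intronless genes, against 0.106 to 0.183 and 0.0975 to 0.197 in the other 5 groups. Its deviation from the mean of the libraries followed the GC content of the genes, with a Spearman correlation of 0.738 across all tested genes and 0.604 across intronless genes, where the other 11 libraries lay between -0.315 and 0.074 and between -0.232 and 0.032. These correlations are across genes, which are not independent replicates. The tested intronless genes are richer in GC than all tested genes, with medians of 54.2% and 48.6%. Because 1 spread was estimated over all groups, this library entered every test, and the counts of called genes below are therefore given with and without it. Leaving out replicate 1 of that group instead gave nearly the same counts wherever the group is not compared itself. These counts therefore do not show which of the 2 replicates is off, and why they rose was not tested. The part of replicate 2 in the results was not tested further.

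**Figure D1:**
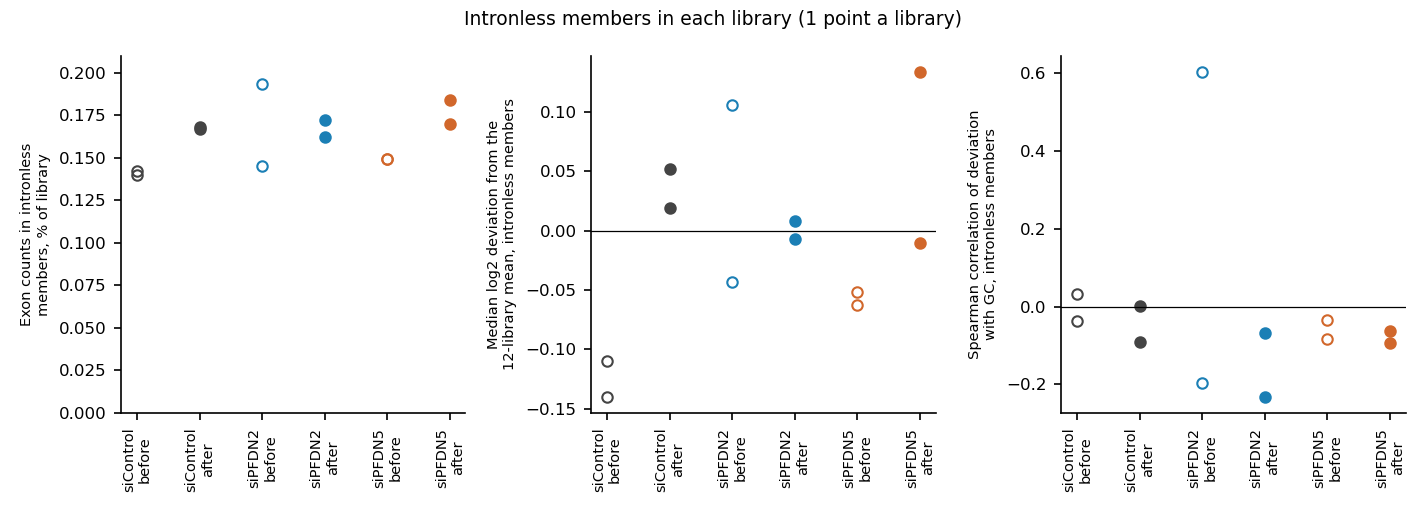
Each point is 1 library, open before and filled after serum. From left to right the panels plot the share of a library's exon counts that fell in intronless genes (axis from 0), the median log2 deviation of tested intronless genes from the mean of the 12 libraries, and the Spearman correlation of that deviation with gene GC content. Replicate 2 of siPFDN2 before serum lies above its replicate in all panels, at 0.193% and a correlation of 0.604. The other 5 libraries before serum hold 0.140% to 0.149% of counts in intronless genes and the 6 after serum hold 0.162% to 0.184%.

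The stretches upstream of 3 serum-responding genes are shown because these genes rose in all 3 siRNAs from low, middle and high starting levels. RHOB encodes a small GTPase that acts on actin and endosomes, KRTAP2-3 a keratin-associated protein known from hair, and GADD45B a stress sensor that binds the kinase MTK1. The sequences are the 250 bases before the RefSeq start in build GRCh38.p14, written 5′ to 3′ on the gene's strand, and capitals mark the letters TATAAA. The RHOB stretch is chr2:20446824-20447073 on the plus strand, that of KRTAP2-3 is chr17:41060115-41060364 on the minus strand and that of GADD45B is chr19:2475877-2476126 on the plus strand.
RHOB: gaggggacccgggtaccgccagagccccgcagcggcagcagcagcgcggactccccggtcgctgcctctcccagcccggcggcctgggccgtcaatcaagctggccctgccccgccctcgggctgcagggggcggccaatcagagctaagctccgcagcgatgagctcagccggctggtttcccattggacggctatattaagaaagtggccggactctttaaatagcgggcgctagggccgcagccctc
KRTAP2-3: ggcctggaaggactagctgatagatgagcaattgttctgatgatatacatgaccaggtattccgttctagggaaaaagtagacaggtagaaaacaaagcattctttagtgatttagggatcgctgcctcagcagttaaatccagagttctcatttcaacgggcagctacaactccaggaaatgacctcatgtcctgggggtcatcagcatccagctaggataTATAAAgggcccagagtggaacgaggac
GADD45B: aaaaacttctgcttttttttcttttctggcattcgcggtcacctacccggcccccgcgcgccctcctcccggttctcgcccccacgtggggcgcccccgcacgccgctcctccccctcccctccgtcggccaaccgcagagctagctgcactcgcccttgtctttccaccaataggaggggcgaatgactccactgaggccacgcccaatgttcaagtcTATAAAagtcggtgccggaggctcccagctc
KRTAP2-3 has TATAAA from 28 to 23 bases before the start and GADD45B from 31 to 26 bases before it, and RHOB has none in this window. RefSeq windows of 250 bases before to 50 bases after the start were found for 9 of the 12 single-block genes that rose in all 3 serum responses, and 2 of the 9 held TATAAA on either strand, or 22.2%. The share was 11.5% of all 35114 windows of the same length and 5.99% of 3420 tested spliced genes. Among single-block genes it was 15.4% of 91 tested intronless genes, 16.9% of 118 tested genes and 29.3% of 557 genes with a window. The CArG box of serum response factor, the cyclic AMP element TGACGTCA and the AP-1 element TGANTCA, searched on both strands, were in none of the 9 windows and in 1.29%, 1.85% and 7.71% of all windows. A match of letters is a description of the window and not a binding site.

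Few of the 749 genes were expressed. The edgeR filter for low counts left 167 of them in the test, 131 intronless and 36 with an annotated intron, out of 24889 genes tested in all. Of the 749, 315 had no count in any library and 513 had fewer than 10 counts in all 12 libraries together. The silent ones are mostly sensory and hair genes. Of 283 olfactory, taste and trace amine receptors 193 had no count and 2 were tested, of 65 keratin-associated proteins 6 were tested, and of 13 interferon genes 0 were tested. TAS2R5, a bitter taste receptor, was the highest of the sensory receptors at a mean of 0.330 CPM.

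By CPM per kilobase of exon (CPM per kb), the scale on which genes of different length can be compared, RPS15 was the highest of the 749 at 106, followed by ID1 at 97.2, SFN at 89.2, MT2A at 78.9 and SF3B5 at 62.4. RPS15 encodes a protein of the small ribosomal subunit, ID1 an inhibitor of basic helix-loop-helix factors, SFN the epithelial 14-3-3 sigma protein, MT2A a metallothionein that binds zinc and copper, and SF3B5 a small subunit of the spliceosomal SF3B complex. Of these 5 genes SFN and SF3B5 are intronless. The next were AL136454.1 at 61.7, MRFAP1 at 57.3, RHOB at 45.1, JUND at 34.8 and MAGEF1 at 23.6. The median over the tested intronless genes was 1.26 CPM per kb, against 4.02 over 4427 tested spliced genes under the same rules of position and 2.10 over all tested genes.

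After serum, genes for AP-1 and C/EBP factors, small GTPases, a keratin-associated protein and a serotonin receptor rose in all 3 siRNAs, with log2 fold changes from 0.55 (RAP2B, siControl) to 4.31 (ARL14, siPFDN5) among the 12 genes that passed in each. In siControl cells 17 of the 167 tested genes passed an adjusted p of 0.05 in edgeR's quasi-likelihood test, 16 higher and 1 lower after serum, or 10.2%, where 2.13% of all tested genes passed. In siPFDN2 cells 20 genes passed, 13 higher and 7 lower, or 12%, against 2.53% of all tested genes. In the libraries labelled siPFDN5, 26 genes passed, 20 higher and 6 lower, or 15.6%, against 4.22%. By direction the higher calls stood against 1.73%, 1.67% and 2.72% of all tested genes and the lower calls against 0.394%, 0.86% and 1.49%. Without replicate 2 of siPFDN2 before serum the counts were 49, 34 and 82 of 174 tested genes, or 28.2%, 19.5% and 47.1%, against 12%, 5.46% and 32.8% of all 26131 genes tested then. All 17, 20 and 26 genes were also called in that fit, with the same sign. With the GC trend of each library removed they were 34, 37 and 56 of 167, where 6.69%, 9.09% and 22.1% of all genes passed. Scaled by library size alone, the siPFDN5 calls split into 15 higher and 9 lower. Without replicate 1 or 2 of siControl before serum the siControl count was 8 or 9, and without replicate 1 of siControl after serum it was 11. Without replicate 1 or 2 of siPFDN2 after serum the siPFDN2 count was 8 or 7, and without replicate 1 of siPFDN2 before serum it was 94, of which 30 were higher and 64 lower. With no filter on low counts the siPFDN2 calls were also mostly lower, 19 higher and 28 lower. The siPFDN5 count was 9 without either siPFDN5 library before serum and 10 without either after it, and 15 or 16 without a siPFDN2 library after serum or a siControl library before it. Shares of all genes are not given for library-size scaling, no filter or the other libraries left out, so those counts describe the fits and not these genes. The number tested also changed without the filter or a library. Without replicate 1 of siPFDN2 before serum only the library that stood apart remains in that group, so the directions there are not read as a response. The 3 comparisons share no library, but they were fitted with 1 estimate of the spread.

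In total 32 genes passed in at least 1 siRNA, 25 of them intronless, and 30 of the 32 had a change of the same sign in all 3. A set of 13 of the 32 passed in all 3 siRNAs, which is 76.5% of those called in siControl, 65% of those in siPFDN2 and 50% of those in siPFDN5. Of the 13, 12 rose and MEX3B fell. Without the library that stood apart 29 genes passed in all 3 and 93 in at least 1, and these include all of the 13 and of the 32. With the GC trend removed these counts were 24 and 70, and 12 of the 13 passed in all 3. The same counts for all tested genes are not given here, so the overlap is not shown to be particular to single-block genes.

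**Figure D2:**
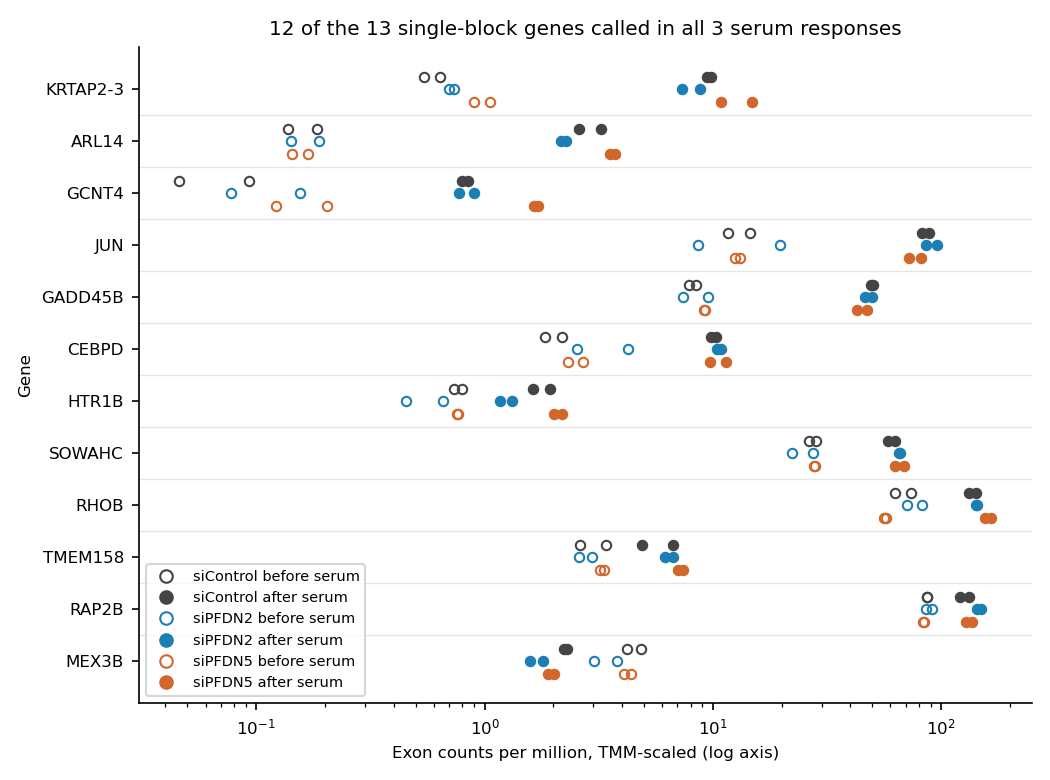
Exon CPM of 12 of the 13 genes called in all 3 serum responses, on a log axis, with 1 point for each of the 12 libraries, open before and filled after serum and coloured by siRNA. In each siRNA and each gene the points before and after serum do not overlap. MEX3B is the gene that is lower after serum.

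Among transcription factors and stress regulators JUN, CEBPD and GADD45B rose in every siRNA. JUN (chr1:58780788-58784327, minus strand, 1 exon) encodes the AP-1 subunit c-Jun. It read 11.6 and 14.6 CPM in siControl before serum and 88.8 and 82.6 CPM after, 8.62 and 19.6 CPM in siPFDN2 before and 85.6 and 95.9 CPM after, and 12.5 and 13.1 CPM in siPFDN5 before and 72.4 and 82.0 CPM after. Every library after serum lay above every library before serum. The log2 fold change of JUN was 2.71 ± 0.31 (SE) in siControl, 2.68 ± 0.31 in siPFDN2 and 2.59 ± 0.31 in siPFDN5, with edgeR adjusted p of 0.000848, 0.00099 and 0.00115. Without the library that stood apart the JUN change in siPFDN2 was 3.39 ± 0.14.

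CEBPD encodes C/EBP delta, a bZIP factor of acute responses. It read 2.19 and 1.84 CPM in siControl before serum and 10.3 and 9.83 CPM after, 2.54 and 4.24 CPM then 10.4 and 10.9 CPM in siPFDN2, and 2.32 and 2.70 CPM then 9.76 and 11.4 CPM in siPFDN5. After serum all 6 libraries lay between 9.76 and 11.4 CPM, and the spread between replicates of CEBPD was widest in siPFDN2 before serum. Its log2 fold changes were 2.31 ± 0.23, 1.64 ± 0.22 and 2.06 ± 0.23 (SE, 2 libraries in each group).

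GADD45B, which has an annotated intron, rose from 7.84 and 8.48 CPM to 50.5 and 49.2 CPM in siControl, from 7.39 and 9.49 to 46.3 and 49.9 CPM in siPFDN2 and from 9.15 and 9.23 to 42.6 and 47.4 CPM in siPFDN5. Its fold changes were 6.09, 5.68 and 4.89, and its edgeR adjusted p was 1.55e-05 or lower in each. The other members of this class did not all pass in the fit of all 12 libraries. JUND, another AP-1 subunit with an annotated intron, read 36.7 and 39.7 CPM before serum and 89.1 and 81.9 CPM after in siControl, without overlap. In siPFDN2 it read 34.5 and 91.8 CPM before serum, where the higher value is that of the library that stood apart. JUND passed in no siRNA in that fit (log2 fold change 1.16 ± 0.34 in siControl, edgeR adjusted p 0.146). IER5, named for its immediate-early response elsewhere, read 37.5 and 35.0 CPM before and 39.7 and 37.8 CPM after serum in siControl, a log2 fold change of 0.10 ± 0.16. Of the 7 tested genes of the immediate-early and bZIP class, 3 rose in each siRNA in the fit of all 12 libraries, namely JUN, RHOB and CEBPD, and JUND, IER5 and NRARP are among the other 4, which did not pass there. With the GC trend removed 4 of the 7 rose in each siRNA. In siControl, siPFDN2 and siPFDN5 4, 4 and 5 of the 7 rose without the library that stood apart.

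Spliced immediate-early genes rose in larger number. Of 24 tested immediate-early genes with 2 or more exon blocks, 23 rose in siControl, 21 in siPFDN2 and 21 in siPFDN5, with median log2 fold changes of 2.86, 2.65 and 2.30, against 1.00, 0.39 and 0.66 for the 7 single-block genes. In the fit without replicate 2 of siPFDN2 before serum 24, 22 and 21 of the 24 rose. Among the spliced ones FOS (3 blocks) rose by 3.04 ± 0.33 and ATF3 (5 blocks) by 4.91 ± 0.17 on the log2 scale in siControl. Both lists were chosen for knowledge of the class, and no test compares them.

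The small GTPase genes RHOB, RAP2B and ARL14 rose in all 3 siRNAs. RHOB (chr2:20447074-20449445, plus strand) read 63.0 and 73.9 CPM in siControl before serum and 132 and 142 CPM after, 70.9 and 82.1 CPM then 144 and 142 CPM in siPFDN2, and 56.4 and 57.1 CPM then 156 and 166 CPM in siPFDN5. The groups before and after serum did not overlap, and the libraries labelled siPFDN5 were the lowest before and the highest after serum. The log2 fold change of RHOB was 1.00 ± 0.14, 0.90 ± 0.14 and 1.5 ± 0.14 (SE), with edgeR adjusted p of 0.00267, 0.00603 and 0.000174. RAP2B, a Ras-related GTPase of the plasma membrane, rose less, from 87 and 86.9 CPM to 121 and 133 CPM in siControl, with fold changes of 1.46, 1.67 and 1.58 in the 3 siRNAs. With the GC trend removed the RAP2B response in siPFDN2 was 0.39 ± 0.13 log2 and no longer passed (edgeR adjusted p 0.076). ARL14 (chr3:160677159-160678452, plus strand), an ARF-like GTPase named here after its values were seen, was nearly silent before serum. It read 0.185 and 0.138 CPM before serum and 3.23 and 2.59 CPM after in siControl, 0.142 and 0.189 CPM then 2.28 and 2.16 CPM in siPFDN2, and 0.143 and 0.168 CPM then 3.71 and 3.53 CPM in siPFDN5. Its fold changes were 15.6, 11.6 and 19.9.

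Genes for a keratin-associated protein and a glycosyltransferase rose from near 0. KRTAP2-3 (chr17:41059240-41060114, minus strand, 1 exon) read 0.636 and 0.541 CPM in siControl before serum and 9.45 and 9.77 CPM after, 0.696 and 0.734 then 8.80 and 7.36 CPM in siPFDN2, and 1.06 and 0.895 then 10.9 and 14.9 CPM in siPFDN5. This gene had the largest log2 fold change of the 167 genes in siControl, 3.97 ± 0.21 (edgeR adjusted p 3.02e-06), with 3.45 ± 0.21 and 3.69 ± 0.21 in the other siRNAs. KRTAP2-4, a near neighbour of the same family on chromosome 17, passed in siControl and siPFDN5 at far lower counts, reading 0.0397 and 0.0460 CPM before and 0.585 and 0.336 CPM after serum in siControl. Its exon counts and transcript estimates differ, 184 counts against 22, so its level is uncertain. GCNT4, an enzyme that branches O-glycans, rose from 0.0927 and 0.0460 CPM to 0.800 and 0.844 CPM in siControl, from 0.155 and 0.0778 to 0.896 and 0.770 CPM in siPFDN2 and from 0.122 and 0.205 to 1.64 and 1.71 CPM in siPFDN5.

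A receptor gene and a chemokine gene also rose. HTR1B, a serotonin receptor, rose by fold changes of 2.29, 2.18 and 2.70 from 0.795 and 0.737 CPM in siControl. CXCL3, a neutrophil chemokine with an annotated intron, rose in siControl by 1.59 ± 0.32 and in siPFDN5 by 1.5 ± 0.33 on the log2 scale, and its value in siPFDN2 was 1.24 ± 0.32 (edgeR adjusted p 0.0755).

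Some receptor genes were lower after serum. FZD7, a Wnt receptor, read 15.6 and 15.5 CPM before and 10.2 and 10.2 CPM after in siControl, 14.2 and 18.0 then 7.98 and 9.42 CPM in siPFDN2, and 16.8 and 16.2 then 7.71 and 8.44 CPM in siPFDN5. It fell in siPFDN2 (-0.88 ± 0.15 log2) and siPFDN5 (-1.03 ± 0.16), and had a log2 fold change of -0.61 ± 0.15 with an edgeR adjusted p of 0.0826 in siControl, which was 0.000112 without the library that stood apart. SSTR5, a somatostatin receptor, fell in siPFDN2, where it read 4.42 and 9.06 CPM before and 2.20 and 2.06 CPM after serum. In siControl SSTR5 read 4.83 and 4.68 CPM then 2.46 and 2.38 CPM, a log2 fold change of -0.97 ± 0.27 that did not pass with all libraries (edgeR adjusted p 0.134). SSTR5 fell in all 3 siRNAs without the library that stood apart, by 0.98, 1.05 and 0.73 on the log2 scale with adjusted p of 2e-05, 0.000211 and 0.000511. It starts 50 bases from the gene SSTR5-AS1, so reads that run past an annotated end cannot be told apart from it.

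USP27X, a deubiquitinase, fell in siPFDN2 (-0.87 ± 0.16 log2) and siPFDN5 (-0.68 ± 0.16). It also fell in siControl with the GC trend removed (-0.61 ± 0.13, edgeR adjusted p 0.016). The siControl value was -0.61 ± 0.13 without the library that stood apart too. SOWAHC, an ankyrin repeat protein that lies 128 bases from SEPT10, rose from 26.5 and 28.4 CPM to 58.3 and 62.5 CPM in siControl, with fold changes of 2.20, 2.64 and 2.36. TMEM158, a membrane protein induced by Ras signalling, rose with fold changes of 1.92, 2.29 and 2.20. MEX3B, an RNA-binding ubiquitin ligase with an annotated intron, was the gene that fell in all 3 siRNAs: it read 4.85 and 4.22 CPM before and 2.22 and 2.29 CPM after serum in siControl, 3.02 and 3.80 then 1.81 and 1.58 CPM in siPFDN2, and 4.38 and 4.09 then 1.90 and 2.01 CPM in siPFDN5. Its fold changes were 0.501, 0.50 and 0.467.

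**Figure D3:**
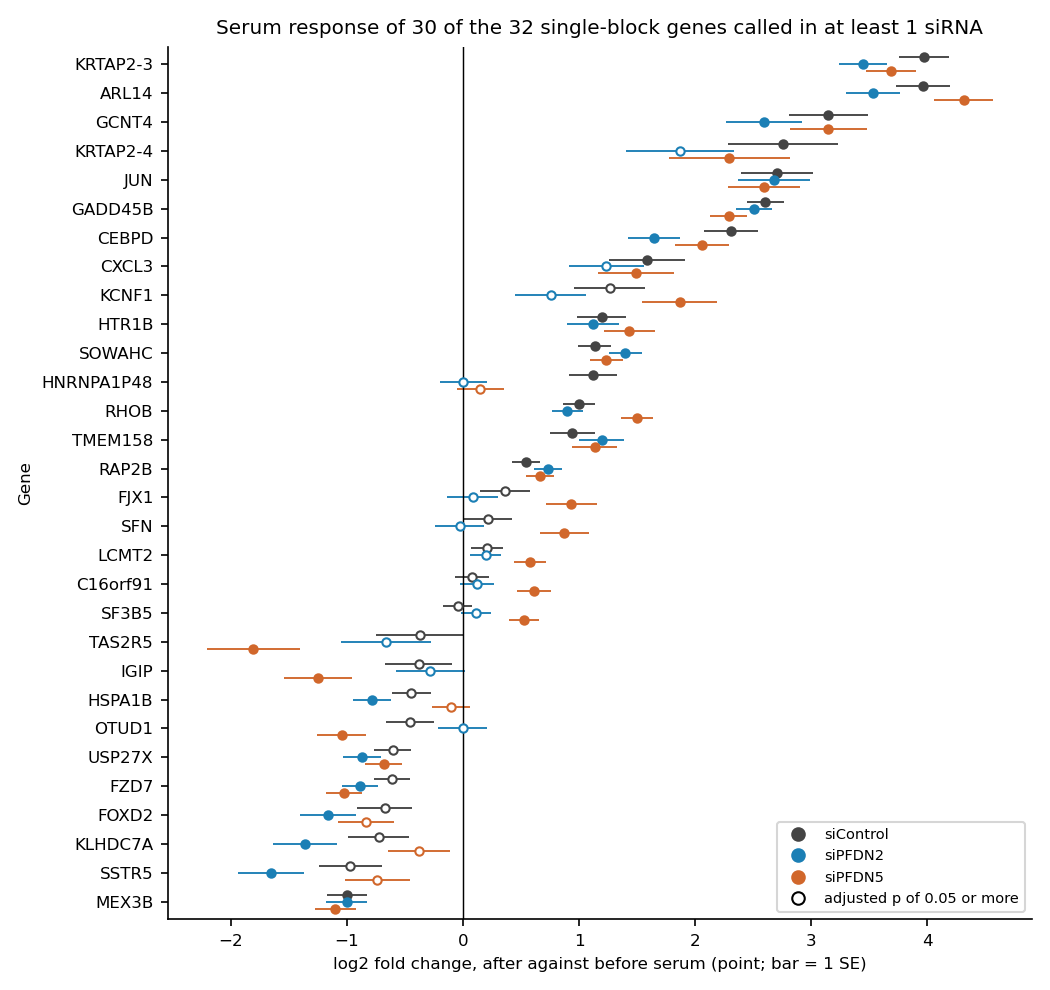
Log2 fold change after against before serum, with 1 standard error, of 30 of the 32 single-block genes called in at least 1 serum response, ordered by the siControl value. Filled points passed an adjusted p of 0.05 and open points did not. The genes drawn that rose in all 3 siRNAs run from RAP2B at 0.55 to KRTAP2-3 at 3.97 in siControl, and SF3B5 and HNRNPA1P48 carry values near 0 in at least 1 siRNA.

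Some genes passed in a single siRNA when all 12 libraries were fitted, and several of these passed in others in the other fits. In the libraries labelled siPFDN5 SFN rose from 91.8 and 99.0 CPM to 175 and 174 CPM (0.87 ± 0.21 log2, edgeR adjusted p 0.0475), while it read 97.9 and 91.1 then 98.7 and 121 CPM in siControl and 87.4 and 147 then 118 and 111 CPM in siPFDN2. SFN also passed in siPFDN2 without the library that stood apart (0.39 ± 0.11, edgeR adjusted p 0.0384) and with the GC trend removed (adjusted p 0.00456). SF3B5 rose there from 43.9 and 43.0 CPM to 59.5 and 65.7 CPM, and read 34.9 and 33.7 then 31.0 and 35.4 CPM in siControl. KCNF1, a potassium channel subunit, FJX1, LCMT2 and C16orf91 also rose and OTUD1, TAS2R5 and IGIP fell in the libraries labelled siPFDN5. In both other fits KCNF1 and FJX1 rose in all 3 siRNAs, with siControl log2 fold changes of 1.25 ± 0.19 and 0.36 ± 0.10 without that library, and C16orf91 rose in siPFDN2 with the GC trend removed. IGIP lies 316 bases from PURA and LCMT2 69 bases from ADAL. A call in 1 siRNA does not show that the responses differ, which is tested below.

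In siPFDN2 KLHDC7A, FOXD2 and the heat shock gene HSPA1B fell, and with all 12 libraries they passed in no other siRNA. Without the library that stood apart all 3 of these genes also fell in siControl (edgeR adjusted p 0.0284 for KLHDC7A, 0.00403 for FOXD2 and 0.000661 for HSPA1B), and FOXD2 fell in siPFDN5 (adjusted p 0.000603). HSPA1B read 66.2 and 93.0 CPM before serum and 47.9 and 44.5 CPM after in siPFDN2, against 49.7 and 57.2 then 38.0 and 40.6 CPM in siControl. The higher value before serum in siPFDN2 is that of the library that stood apart. HSPA1B and HSPA1A are near-identical copies and their transcript estimates were 1274 against 46097 exon counts and 6 against 3411 over all libraries, so neither level is certain.

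The comparison of interest for splicing is with genes that have more exon blocks. In siControl the genes called were 9.92% of intronless genes, 6.66% of 796 spliced genes with 2 to 4 blocks, 4.34% of 1773 genes with 5 to 10 blocks and 1.13% of 1858 genes with more than 10 blocks. In siPFDN2 the same shares were 13.7%, 7.79%, 5.08% and 1.51%, and in the libraries labelled siPFDN5 15.3%, 9.55%, 6.66% and 1.83%. These shares leave out the 36 tested single-block genes with an annotated intron. With all 12 libraries their share was above that of intronless genes in siControl and siPFDN5 and below it in siPFDN2. A high share called is therefore not shown to be particular to genes without introns. Across the classes listed, the order ran from fewest to most blocks in each siRNA. It held in siControl without the library that stood apart, at 27.2%, 24.4%, 19.4% and 13.8%, and in siPFDN2 at 19.1%, 14.5%, 10.3% and 5.84%. In siPFDN5 those shares were 46.3%, 46.6%, 43.9% and 34.4%, with intronless genes level with genes of 2 to 4 blocks. With the GC trend removed they were 32.1%, 36.4%, 32.7% and 22.4% in siPFDN5, so the order is not kept there, and in siPFDN2 intronless genes and genes with 2 to 4 blocks both stood at 19.8%. No test compares these classes, which also differ in length: the median exon length of tested genes was 2343 bases for intronless genes and 5656 bases for genes with more than 10 blocks, and the median level was 1.26 against 4.22 CPM per kb.

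The classes differed less in their medians. The median log2 fold change after serum was 0.10 for intronless genes and -0.03 for all spliced genes in siControl, -0.10 and -0.06 in siPFDN2, and 0.17 and 0.05 in siPFDN5. All tested genes had medians of 0.00, -0.01 and -0.01. In siControl 87 of 131 intronless genes had a positive change. Without the library that stood apart the median of intronless genes in siPFDN2 was 0.05, a change of sign, and it was 0.11 in siControl and 0.17 in siPFDN5.

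**Figure D4:**
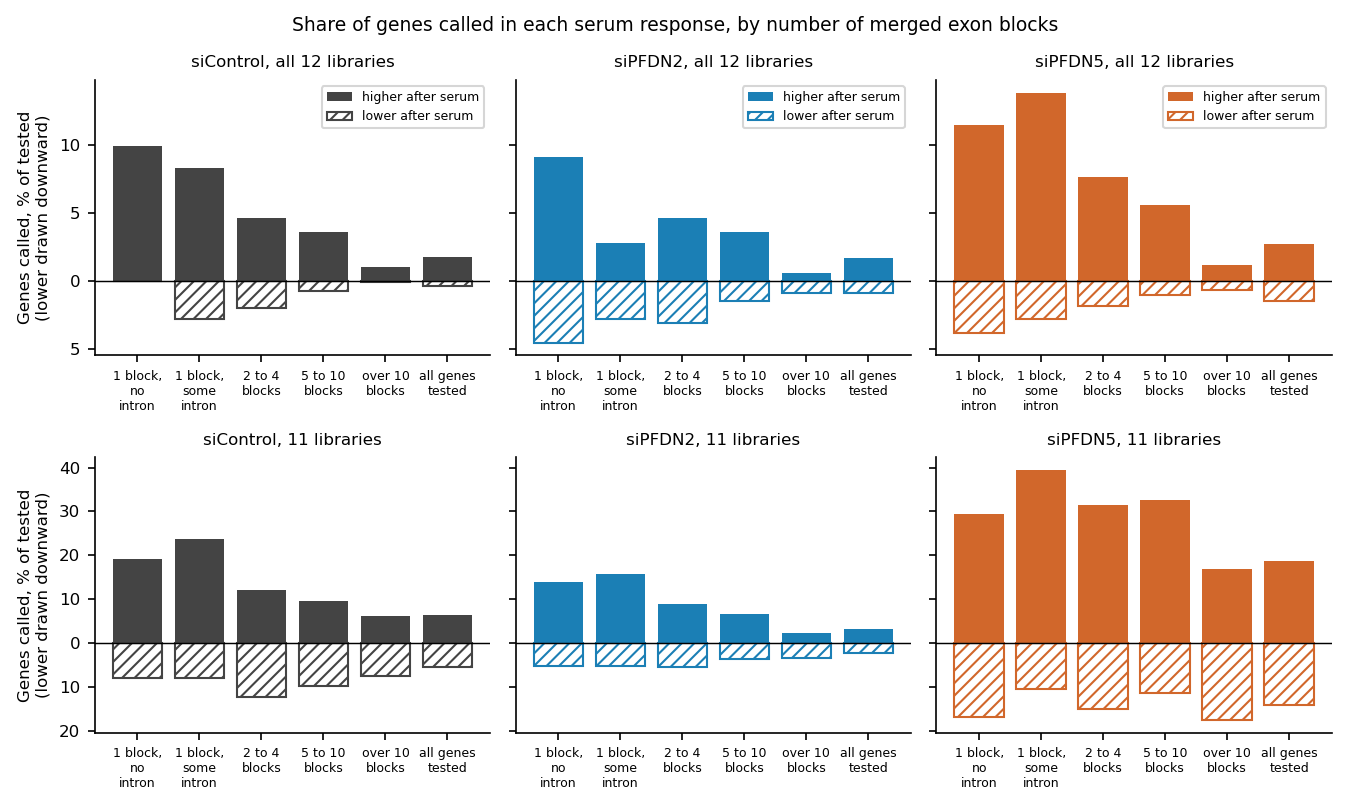
Share of tested genes called higher (solid, upward from 0) or lower (hatched, downward from 0) after serum, by number of merged exon blocks, for siControl, siPFDN2 and siPFDN5 from left to right. The upper row uses all 12 libraries and the lower row leaves out replicate 2 of siPFDN2 before serum, on its own scale. In the upper row the shares called higher among intronless genes are 9.92%, 9.16% and 11.5%, against 1.73%, 1.67% and 2.72% of all genes tested.

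Exon counts and whole-gene counts are the same quantity for these genes. All 8988 values of the 749 genes in the 12 libraries were equal in the authors' exon table and gene-body table, whereas among the spliced genes 5.78% of gene-body counts fell outside exons. A change of intron retention therefore cannot show as a difference between the tables for a single-block gene.

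Knockdown of either prefoldin subunit gave no call among the 167 genes when all 12 libraries were fitted. In edgeR's quasi-likelihood test 0 genes passed for siPFDN2 against siControl before or after serum and for siPFDN5 against siControl before or after serum, and of all 24889 genes 0%, 0%, 0% and 0.00402% passed in these comparisons. At an unadjusted p under 0.05 there were 27, 10, 26 and 31 of the 167 for siPFDN2 before and after and siPFDN5 before and after serum. DESeq2 called 3, 0, 3 and 9. Shares of all genes are not given for these counts or for the fit without replicate 1 of siPFDN2 before serum below. Such counts are not read as a result about single-block genes. Without replicate 2 of siPFDN2 before serum the edgeR counts were 1 and 8 of 174 for siPFDN2 before and after serum, where 0.402% and 6.09% of all genes passed, and 29 and 43 for siPFDN5, where 10.8% and 26.5% passed. Without replicate 1 of that group instead they were 73 and 7 for siPFDN2 and 28 and 43 for siPFDN5. With the trend of each library with GC content removed they were 2, 0, 7 and 29, where 0.398%, 0.0241%, 1.61% and 13.3% of all genes passed. The share of single-block genes called for siPFDN5 after serum, 24.7% without that library and 17.4% with the GC trend removed, is near the share of all genes.

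For the siPFDN5 label 28 genes after serum and 7 before serum were called in both of these other fits. The genes in the next sentences were named after their values were seen. The 28 are 16.8% of the 167 tested genes, where 13.1% of all genes were called in both, and the 7 are 4.19%, where 1.6% were. Of the 28, 23 were higher and 5 lower than in siControl, and 19 are intronless. Of all 3266 genes called in both after serum, 1929 were higher and 1337 lower.

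SF3B5 read 31.0 and 35.4 CPM in siControl after serum, 43.6 and 45.7 CPM in siPFDN2 and 59.5 and 65.7 CPM in the libraries labelled siPFDN5, and the 3 siRNAs did not overlap. Its log2 difference for siPFDN5 was 0.91 ± 0.13 (SE, edgeR adjusted p 0.108) with all libraries and 0.92 ± 0.08 (adjusted p 1.43e-06) without the library that stood apart. SFN differed by 0.67 ± 0.21 and 0.68 ± 0.09 and GCNT4 by 1.00 ± 0.27 and 1.01 ± 0.23 in the same 2 fits. That library belongs to neither group compared, so the fold changes could hardly differ between these fits.

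TMEM185B, a membrane protein, was higher at both times: it read 24.2 and 24.0 CPM in siPFDN5 against 14 and 13.5 CPM in siControl before serum, and 24.5 and 29.9 CPM against 19.6 and 22.1 CPM after. With all libraries its log2 difference was 0.81 ± 0.16 before and 0.39 ± 0.16 after serum, and it was not called (edgeR adjusted p 0.234 and 0.251). TBCC, the tubulin folding cofactor C, read 21.6 and 19.9 CPM under the siPFDN5 label after serum against 14.7 and 16.4 CPM in siControl, a log2 difference of 0.42 ± 0.13 with all libraries (edgeR adjusted p 0.157). Before serum TBCC read 16.8 and 17 CPM in siPFDN5 and 18.8 and 17.8 CPM in siControl, so the sides are exchanged.

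Lower in the libraries labelled siPFDN5 after serum were FAM43A, with 3.11 and 3.51 CPM against 4.83 and 4.75 CPM in siControl, and HPDL, with 0.146 and 0.204 CPM against 0.508 and 0.399 CPM. With all libraries the log2 differences after serum were -0.53 ± 0.26 for FAM43A and -1.22 ± 0.42 for HPDL, neither called (edgeR adjusted p 0.322 and 0.184). HPDL, an enzyme related to hydroxyphenylpyruvate dioxygenase, was also low before serum, at 0.0611 and 0.0746 CPM against 0.358 and 0.265 CPM. Its log2 difference there was -1.82 ± 0.49 with all libraries (edgeR adjusted p 0.356). HPDL had only 239 exon counts over all 12 libraries, so these values lie near the floor. In siPFDN2 after serum HPDL read 0.163 and 0.206 CPM, also below siControl.

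**Figure D5:**
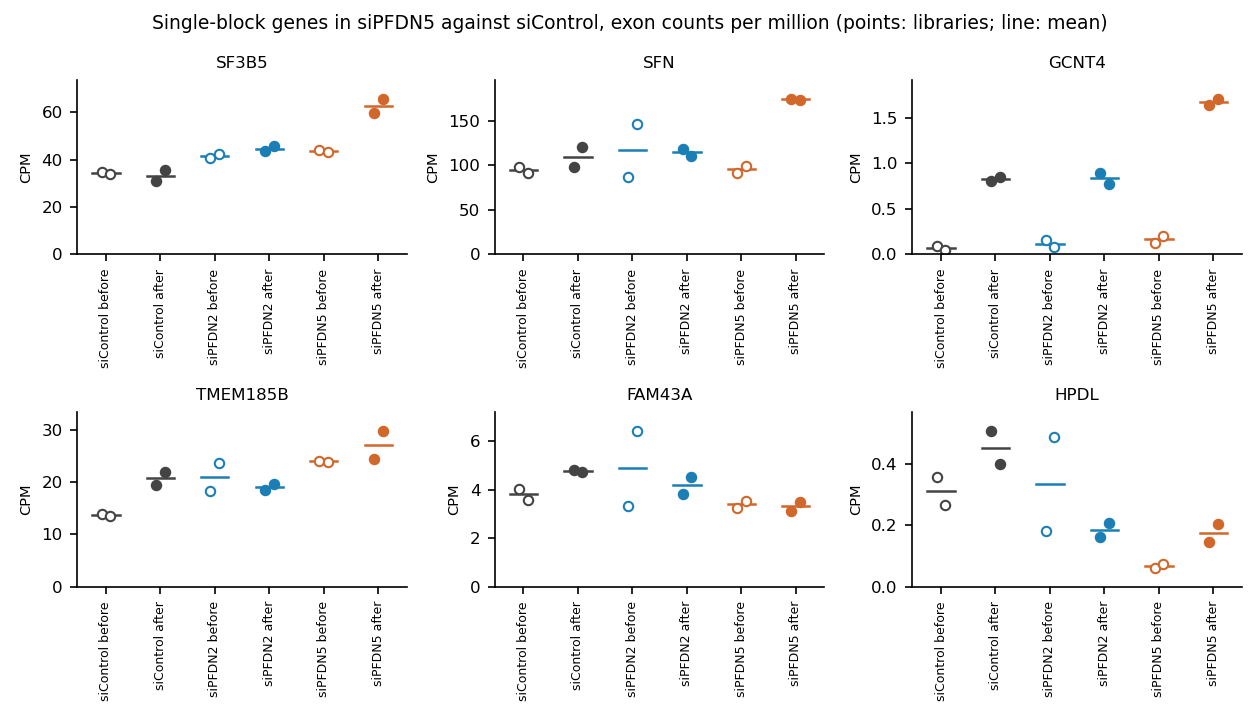
Exon CPM in each library for 6 single-block genes, with the group mean as a line and every axis from 0, open points before and filled points after serum. SF3B5, SFN and GCNT4 are highest in the 2 libraries labelled siPFDN5 after serum. In siPFDN2 before serum the right-hand point is the library that stood apart.

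Whether a knockdown changed the serum response was tested directly. No single-block gene passed the edgeR test of the difference between siPFDN2 and siControl or between siPFDN5 and siControl with all libraries, nor did any of the 24889 genes, so that 0% passed in both. At an unadjusted p under 0.05 the counts were 12 and 20 of 167, and DESeq2 called 0 and 0. Shares of all genes are not given for these counts or for the fit without replicate 1 of siPFDN2 before serum. They are not read as a result about single-block genes. Without the library that stood apart 0 and 27 of 174 passed, where 0% and 18.7% of all genes passed. Without replicate 1 of siPFDN2 before serum instead, 67 and 27 passed. With the GC trend removed 0 of 167 passed in both, where 0% and 0.0603% of all genes passed. For RHOB the responses of siPFDN5 and siControl had a difference of 0.50 ± 0.19 log2 (edgeR adjusted p 0.316) with all libraries and 0.51 ± 0.12 (adjusted p 0.0063) without that library, and 0.49 ± 0.17 (adjusted p 0.103) with the GC trend removed. SFN differed by 0.66 ± 0.30 with all libraries (edgeR adjusted p 0.387) and 0.67 ± 0.12 without that library (0.0026), and removal of the GC trend gave an adjusted p of 0.0599. SF3B5 differed by 0.57 ± 0.18 (adjusted p 0.263) and 0.59 ± 0.11 (0.00337), with 0.0881 after GC removal. For JUN the difference was -0.03 ± 0.41 for siPFDN2 and -0.12 ± 0.42 for siPFDN5, and for KRTAP2-3 -0.53 ± 0.28 and -0.28 ± 0.27, none of which passed in any of these 3 fits. The JUN difference for siPFDN2 changed sign, to 0.69 ± 0.16 without that library and 0.35 ± 0.25 with the GC trend removed. The differences of both knockdowns share the siControl libraries.

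For some genes the exon counts and the transcript estimates disagree. Of 164 tested single-block genes with a transcript estimate, the estimate summed over libraries was under 0.5 times the exon count in 22 and over 2 times in 10, that is 19.5%, against 5.98% of 4413 spliced genes. The low ones include AL136454.1 (24658 exon counts against 50 estimated), GLUD2 (3219 against 14), PABPC3 (3421 against 86), NACA2 (1592 against 34), UQCRHL (6424 against 478) and HNRNPA1P48 (15040 against 816), and the high ones are led by the humanin-like genes MTRNR2L8, MTRNR2L10, MTRNR2L12 and MTRNR2L6, at 1700 to 3150 times the exon counts. The levels of these genes are uncertain, and why the values disagree was not tested. Among the 132 genes whose values agreed within those limits, 15, 19 and 25 passed the serum tests in siControl, siPFDN2 and siPFDN5, and 44, 31 and 71 without the library that stood apart. HNRNPA1P48, called in siControl from 8.46 and 9.45 CPM to 21.6 and 17.5 CPM, is not among them.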

How the data were processed

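Exon counts and gene-body counts per gene were deposited by the authors as tables of whole-number counts, made with featureCounts 1.5.2 on read pairs with both ends mapped, with reads over several genes counted for each, no strand option and no multi-mapping reads, per the file headers. HISAT2, kallisto 0.43 and build GRCh38 are named in the submitters' processing notes, and the annotation was Ensembl 87. The authors also deposited estimated counts per transcript, and the notes name kallisto without saying which files it made, and these were summed per gene and rounded. The count tables hold 6 further sample columns that match no sample here and were not used. Exons were merged per gene, and biotypes and introns came from GENCODE 29, in which 57447 of the 58051 listed genes were found.

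Exon counts were fitted with edgeR 4.0.16 (R 4.3.3) by the quasi-likelihood test with TMM scaling, filterByExpr over the 6 groups, a prior count of 2 and robust dispersion, in 1 fit of group means over all 12 libraries. P-values were adjusted by Benjamini-Hochberg over all 24889 tested genes, and a gene was called at an adjusted p under 0.05. Standard errors are the log2 fold change divided by the root of its F. Alternatives were upper-quartile or library-size scaling, no filter, DESeq2 1.42.0, a replicate block, removal of each library's GC trend (lowess, span 0.3), gene-body counts, only the groups compared, leaving out each library and, chosen after seeing the data, transcript estimates. The rule for the members uses coordinates alone, but the rule and the gene lists were chosen with earlier results of these data known. Named genes are PFDN2 and PFDN5, per comparison up to 8 called members in each direction with a mean log2 CPM of 1 or more and groups that do not overlap, the 10 highest per kb, and members of fixed classes. Other names were chosen after their values were seen. Promoter windows are from RefSeq, and 557 of 749 members matched by symbol. Values of some single genes are not reported here, and these genes are counted but not named or drawn.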

Additional observations from a re-analysis of the deposited data

Results flagged for a closer look

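NRARP, an intronless gene for a Notch-regulated ankyrin repeat protein, passed in no serum response, but its libraries after serum lay on opposite sides of those before serum in siControl and under the siPFDN5 label. In siControl it read 3.17 and 3.50 CPM before serum and 3.63 and 3.54 CPM after, so both libraries after serum lay above both before. The nearest of these libraries differ little, at 3.50 CPM before and 3.54 CPM after. How many other genes show such opposite sides is not given here. In siPFDN5 it read 4.46 and 4.51 CPM before and 2.95 and 4.07 CPM after, so both lay below. The difference of the NRARP responses was -0.454 on the log2 scale (SE 0.42), with an edgeR adjusted p of 0.704, and it was not called. Without replicate 2 of siPFDN2 before serum it was -0.43 with an adjusted p of 0.14.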

How the results depend on the processing

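Counts of called single-block genes differed between the settings. The number tested was 167 in the main fit, 434 with no filter and 149 to 163 with only the groups compared. The counts are therefore not directly comparable. Shares of all genes called are not given here for the fits with no filter, DESeq2 or only the groups compared, so these counts describe the settings and not these genes. For siPFDN2 against siControl before serum they were 0, and 19 with no filter, 3 with DESeq2, 2 with the GC trend removed and 1 with that and the replicate block. For siPFDN5 before serum they were 0, and 7, 3, 7 and 4 in the same order, and 27 with only the groups compared. For siPFDN2 after serum they were 0, and 2 with only the groups compared. For siPFDN5 after serum they were 0, and 9, 9, 29, 26 and 34. For the serum response in siControl DESeq2 gave 26, GC removal 34, GC removal with the replicate block 33 and only the groups compared 41, against 17. In siPFDN2 they were 47 with no filter, 31, 37, 31 and 2, against 20. In siPFDN5 they were 56 with the GC trend removed, 57 with the replicate block added and 82 with only the groups compared, against 26. The difference of serum responses gave 3 for siPFDN2 and 1 for siPFDN5 with no filter, and 22 for siPFDN5 with only the groups compared, against 0. Leaving out 1 library gave 0 to 73, 0 to 29, 0 to 8 and 0 to 43 for the knockdowns in the order above, 8 to 49, 7 to 94 and 9 to 82 for the serum responses, and 0 to 67 and 0 to 27 for the differences. A group left with 1 library is assumed to vary like the others. The cause was not tested. Replicate numbers do not pair the libraries: correlations of replicate deviations ran from -0.325 to 0.631 over the 15 pairs of groups. The replicate block alone gave 16, 20 and 19 serum calls in siControl, siPFDN2 and siPFDN5 and 0 elsewhere. Of 400 values of named genes under alternatives that keep all libraries, 366 kept their side of the threshold, 22 lost and 12 gained a call, and of 480 that leave out 1 library these were 394, 80 and 6, with 0 reversed.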
